A study of Mus musculus with 9 samples.

Results

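Pf4, Ppbp, Itga2b, Itgb3, Gp9, Gp1bb, Gp6 and Treml1 are transcripts by which platelets and megakaryocytes are commonly recognized, and they were read here in RNA from mouse splenic monocytes. Members were the rows of the count table and of the FPKM table whose gene name was one of these 8 symbols. All 8 were found, with 1 row each, among the 46072 genes of the tables, of which 26108 were above 0 in at least 1 library. Levels are given in FPKM, which divides fragments by transcript length and by library depth, and fold changes come from the counts.

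The study asked whether loss of gut bacteria changes splenic monocytes, and whether a bacterial lipid given by injection alters that. Female C57BL/6 mice, obtained at 8 to 10 weeks of age, were gavaged for 6 days, 2 times a day. Mice of the Con group received water, and mice of the Van and VanLip groups received 2 mg of vancomycin a day as 1 mg per gavage. All mice were then rested without antibiotics, with monocytes taken after rest day 8, and VanLip mice also received L654, a serine-glycine lipid of bacteria that is a ligand of TLR2, retro-orbitally on days 7, 9 and 11 by the labels, which do not say from when days are counted, and early in the rest by the study's text. Vancomycin is a glycopeptide antibiotic that is poorly absorbed from the gut. Each group had 3 mice and 3 libraries of polyadenylated RNA (n = 3), made from monocytes that were purified by magnetic negative selection. Con and Van mice received no L654. Vehicle injections are described for the study's L654 protocol, but whether the Con and Van mice of these libraries had them is not stated. The 3 contrasts share their groups.

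Monocyte markers were high in every library. Lyz2 (lysozyme) lay between 6428 and 9154 FPKM and Csf1r, the receptor for the monocyte growth factor CSF-1, between 528 and 643 FPKM. Of the 10 monocyte markers, DESeq2 called Ccr2 lower for Van against Con (log2 fold change -0.83, adjusted p = 0.00048), and between VanLip and Van it called Ccr2, Ly6c2 and Cx3cr1 higher in VanLip and Fcgr4 lower. The part of these shifts in the platelet transcripts was not tested. Summed over 6 red pulp macrophage markers the level was 999 to 1559 FPKM, with Vcam1 called higher in Van than in Con and lower in VanLip than in Van, whereas 7 neutrophil markers summed to 1.94 to 12.2 FPKM and 5 NK cell markers to 0.169 to 0.771 FPKM. The Con and Van libraries held 43070361 to 61383806 expected counts and the VanLip libraries 170503470 to 184720704. The commonest low count corresponded to reads of 100 bases in Con and Van and of 150 bases in VanLip, although the study's methods name only the shorter length, so that read length and depth cannot be told apart from the VanLip group.

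Platelets are fragments of megakaryocytes that have no nucleus and carry messenger RNA received from the parent cell, and in mice the red pulp of the spleen holds megakaryocytes and stores platelets. Platelet granules release the chemokines PF4 and PPBP, and the surface carries the fibrinogen receptor, integrin alphaIIb beta3, and the von Willebrand factor receptor GPIb-IX-V. Platelets also adhere to monocytes, so a preparation of monocytes can carry platelet RNA. In bulk RNA, fewer cells or platelets in a preparation and less RNA in each of them cannot be told apart.

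The genes of the chemokine pair lie side by side. On GRCm38, Ppbp lies on chromosome 5 from 90768518 to 90770063 and Pf4 from 90772435 to 90773383, both on the plus strand, with 2371 bases between them. Upstream sequences of Pf4, Ppbp and Gp9 are shown because GATA, ETS and RUNX factors are the known regulators of megakaryocyte genes. Each is the stretch of 130 bases that ends at the base before the RefSeq gene start (GRCm38.p6), on the strand of the gene, and capitals mark the letters AGGAAG, an ETS-type motif, or their reverse complement CTTCCT.
Pf4, chr5:90772305-90772434, plus strand: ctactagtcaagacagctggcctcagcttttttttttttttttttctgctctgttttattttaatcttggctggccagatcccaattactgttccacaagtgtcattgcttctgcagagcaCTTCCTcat
Ppbp, chr5:90768388-90768517, plus strand: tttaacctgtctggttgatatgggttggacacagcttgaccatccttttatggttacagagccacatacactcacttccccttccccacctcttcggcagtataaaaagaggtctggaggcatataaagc
Gp9, chr6:87777940-87778069, plus strand: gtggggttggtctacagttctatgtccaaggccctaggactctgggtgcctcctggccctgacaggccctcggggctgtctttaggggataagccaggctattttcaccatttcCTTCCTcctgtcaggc

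Promoters from 250 bases before to 50 bases after the start were given for 7 of the 8 members, the exception being Itgb3. Searched on both strands, AGGAAG or CTTCCT occurred in 4 of the 7, and in 35.4% of 32851 promoters of that length. The GATA-type letters AGATAA or TTATCT occurred in 2 of 7, Pf4 and Gp6, against 11.2% of all promoters. The RUNX-type letters TGTGGT or ACCACA occurred in 1 of 7, Gp9, against 16.8%. Of the 3 motifs only the ETS-type letters fall in the stretches shown, and a match is a description of the letters and not of a bound site.

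No member passed the test in any of the 3 contrasts. The DESeq2 Wald test with Benjamini-Hochberg adjustment over all genes called 0 of 8 members for Van against Con, where it called 4.34% of all genes that received an adjusted p. It called 0 of 8 in the contrast of VanLip with Con (6.67% of all genes) and 0 of 8 in that of VanLip with Van (9.86%). Before adjustment, p was under 0.05 for 1 member in Van against Con (Itga2b), for 2 in VanLip against Con (Pf4 and Itga2b) and for 1 in VanLip against Van (Itgb3), beside 11.1%, 13% (3315 of 25420) and 15.5% of all genes tested. The edgeR quasi-likelihood test also called no member, and it called 204, 301 and 855 genes in all.

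The estimates of most members lay below 0 against Con. For Van against Con 7 of 8 were negative, with a median log2 fold change of -0.46, while the median was -0.00 over the 15351 genes whose normalized counts averaged 20 or more. For VanLip against Con 7 of 8 were negative with a median of -0.69, and the median over all those genes was 0.01. For VanLip against Van 6 of 8 were negative with a median of -0.28, against 0.01 over all. Without VanLip1, 4 of 8 were negative in that contrast. Most of the members correlated with each other over the libraries, so these are not 8 separate observations.

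**Figure D1:**
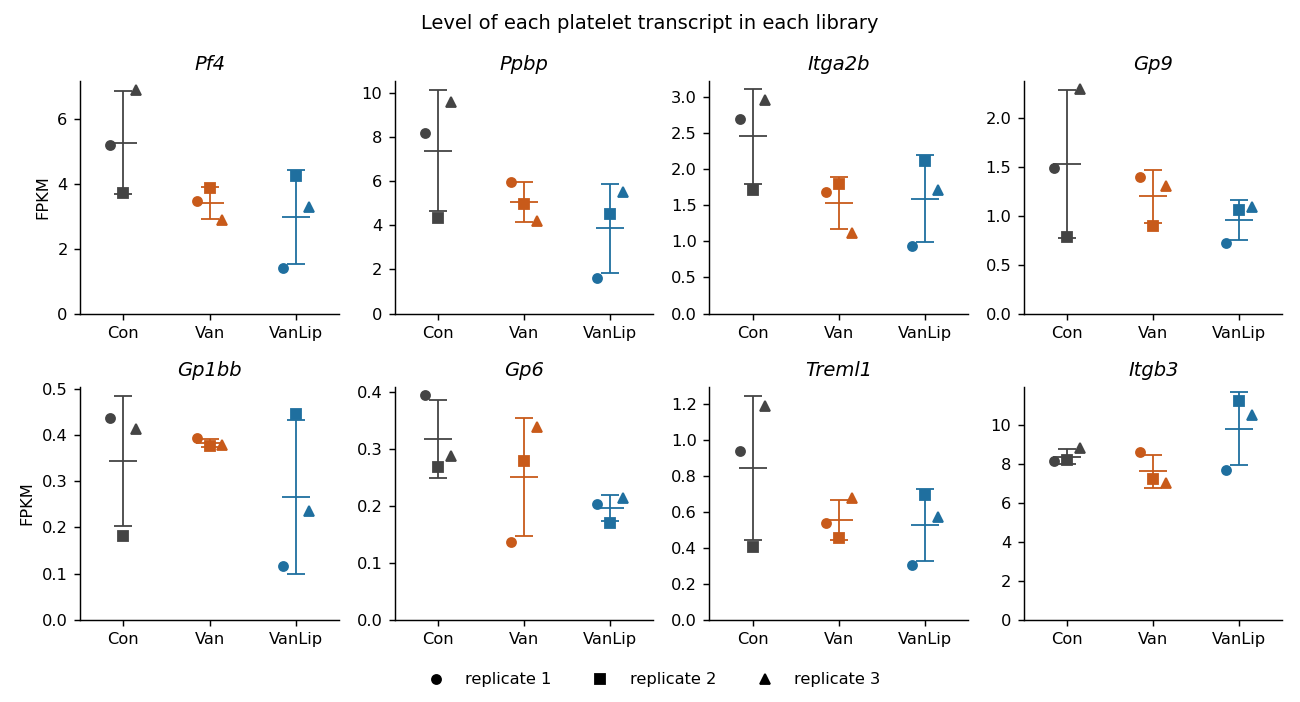
Level of each member (FPKM, linear axis from 0) in each of the 9 libraries, by group. Points are libraries with the replicate number as the symbol, and bars give the mean and SD of 3 libraries. Con2 was the lowest Con library for each member except Itgb3, and VanLip1 the lowest VanLip library for each member except Gp6.

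Pf4 encodes platelet factor 4, or CXCL4, a chemokine of the alpha granules that binds heparin. Its level was 5.19, 3.72 and 6.89 FPKM in Con1, Con2 and Con3, 3.48, 3.86 and 2.89 FPKM in the Van libraries, and 1.39, 4.24 and 3.27 FPKM in the VanLip libraries. Con1 and Con3 were the highest of the 9 libraries and VanLip1 the lowest, while Con2 fell within the range of the other groups. The means were 5.27 ± 1.59, 3.41 ± 0.487 and 2.97 ± 1.45 FPKM (SD, n = 3). DESeq2 estimated a log2 fold change of -0.86 (SE 0.37) for VanLip against Con with an adjusted p of 0.158, and of -0.64 (SE 0.38) for Van against Con with an adjusted p of 0.446. Leaving out 1 library at a time moved the first of these between -1.18 without VanLip2 (adjusted p = 0.0681) and -0.52 without VanLip1 (adjusted p = 0.357), and the second was -0.40 without Con3.

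Ppbp encodes pro-platelet basic protein, CXCL7, which is cut to a chemokine that attracts neutrophils. It was at 8.18, 4.31 and 9.59 FPKM in Con, 5.97, 4.97 and 4.19 FPKM in Van, and 1.59, 4.49 and 5.49 FPKM in VanLip. The groups overlapped through Con2, which was lower than the highest libraries of Van and VanLip. The largest estimate was that of VanLip against Con, -0.95 (SE 0.50), with a DESeq2 adjusted p of 0.288. Whether Ppbp passed the threshold depended on single libraries. Leaving out Con2 gave -1.22 with an adjusted p of 0.0411, and leaving out VanLip3 gave -1.30 with an adjusted p of 0.0171. Leaving out VanLip1 gave -0.58 with an adjusted p of 0.262. The SE also changed with the fit while all 9 libraries were kept. It was 0.38 with a filter of at least 10 counts in 3 libraries (DESeq2 adjusted p = 0.116). On counts converted to fragments it was 0.39 (adjusted p = 0.142).

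The pair kept a narrow ratio. Ppbp was 1.06 to 1.72 times Pf4 in FPKM, with a median of 1.39, while each of them spanned a wider range, 4.95 times for Pf4 and 6.02 times for Ppbp between the lowest and the highest library. Over the 9 libraries their log2 normalized counts had a Pearson r of 0.94. Both genes drew on the same 9 libraries, so this is given as a description.

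Itga2b encodes the alphaIIb chain (CD41), which on platelets pairs with beta3 and binds fibrinogen. Its level was 2.69, 1.71 and 2.96 FPKM in Con, 1.68, 1.79 and 1.12 FPKM in Van, and 0.937, 2.11 and 1.72 FPKM in VanLip. Con1 and Con3 again stood above the 7 other libraries, and Con2 lay among them. The DESeq2 log2 fold change was -0.68 (SE 0.32, 95% interval -1.30 to -0.05) for Van against Con with an adjusted p of 0.274. It was -0.65 (SE 0.32) for VanLip against Con with an adjusted p of 0.234, and 0.02 (95% interval -0.60 to 0.65) for VanLip against Van. Without VanLip1 the estimate for VanLip against Con was -0.37 (adjusted p = 0.546). The gene lies on the minus strand of chromosome 11 from 102453297 to 102470122.

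Itgb3 encodes the beta3 chain (CD61), which also pairs with the alphaV chain (Itgav) in many other cells, macrophages among them. It was at 8.13, 8.17 and 8.80 FPKM in Con, 8.59, 7.22 and 7.03 FPKM in Van, and 7.67, 11.2 and 10.5 FPKM in VanLip. VanLip2 and VanLip3 were the highest of the 9 libraries, whereas VanLip1 was below every Con library. DESeq2 gave a log2 fold change of 0.35 (SE 0.14, 95% interval 0.09 to 0.62) for VanLip against Van with an adjusted p of 0.0775.

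Single libraries decided whether Itgb3 passed the threshold. Without VanLip1 the log2 fold change against Van was 0.50 (DESeq2 adjusted p = 0.000174) and that against Con 0.35 (adjusted p = 0.0234). Without VanLip2 these were 0.25 (adjusted p = 0.331) and 0.11 (adjusted p = 0.854). Without Van1 the estimate for VanLip against Van was 0.46 (adjusted p = 0.0268). With all 9 libraries the estimates were 0.21 (SE 0.14, adjusted p = 0.422) for VanLip against Con and -0.14 (SE 0.14, adjusted p = 0.752) for Van against Con.

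The chains of the platelet integrin did not keep a fixed ratio. Itgb3 exceeded Itga2b in FPKM by 2.98 times in Con3, the lowest ratio, and by 8.19 times in VanLip1, the highest. Itgav was higher than Itgb3 in every library, by 1.72 to 2.90 times in FPKM. Itgav itself passed the DESeq2 test for Van against Con (log2 fold change -0.43, SE 0.13, adjusted p = 0.0207) and for VanLip against Van (0.37, SE 0.13, adjusted p = 0.0418).

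Gp9 encodes glycoprotein IX, a small subunit that GPIb-IX-V needs to reach the surface. Its FPKM values were 1.49, 0.787 and 2.30 in Con, 1.40, 0.893 and 1.31 in Van, and 0.727, 1.06 and 1.09 in VanLip. Con2 was nearer to VanLip1, the lowest library, than to the other Con libraries, so the Con group spanned nearly the whole range. For VanLip against Con the DESeq2 log2 fold change was -0.68 (SE 0.40, adjusted p = 0.368). Without Con3 this was -0.28 (adjusted p = 0.864), and the estimate for Van against Con turned from -0.34 to 0.06. The gene lies on chromosome 6 from 87778072 to 87779768.

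Gp1bb encodes the beta chain of glycoprotein Ib, which is joined to the alpha chain that binds von Willebrand factor. It was at 0.436, 0.182 and 0.413 FPKM in Con, 0.392, 0.376 and 0.379 FPKM in Van, and 0.116, 0.444 and 0.235 FPKM in VanLip. The Van libraries lay close together, and the other groups spread on both sides of them. These values rested on 8.38 to 40.0 fragments a library. The estimates of 0.17 (Van against Con), -0.34 (VanLip against Con) and -0.51 (VanLip against Van) had SEs of 0.55 to 0.56. The last of these was -1.13 without VanLip2 and -0.13 without VanLip1. The gene overlaps Sept5 and Gm49601 on the same strand of chromosome 16, so its counts are uncertain. Sept5 was listed at 0 to 0.181 FPKM.

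The other subunits of the complex, Gp1ba and Gp5, are added here after their values were seen. Gp5, which encodes glycoprotein V, was at 0.364 to 0.795 FPKM in Con, 0.348 to 0.555 FPKM in Van and 0.10 to 0.383 FPKM in VanLip, with VanLip1 lowest. Gp1ba, the chain that binds von Willebrand factor, stayed between 0.576 and 0.931 FPKM in all 9 libraries, with estimates of -0.18, -0.07 and 0.11 in the 3 contrasts. Neither was called by DESeq2, and the smallest adjusted p was 0.183, for Gp5 in VanLip against Con.

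Gp6 encodes glycoprotein VI, which signals for collagen through the Fc receptor gamma chain (Fcer1g). It had the lowest mean of the members, 0.255 FPKM, from 4.35 to 14.0 fragments a library. Its values were 0.396, 0.269 and 0.287 FPKM in Con, 0.137, 0.278 and 0.339 FPKM in Van, and 0.203, 0.170 and 0.214 FPKM in VanLip. All 3 VanLip libraries were below all 3 Con libraries, which was the case for 1 of 8 members, and 11.3% of those 15351 genes had VanLip below Con in this way. The DESeq2 log2 fold change was -0.72 (SE 0.49) with an adjusted p of 0.462. With VanLip fragments thinned to the depth of the other libraries it was -0.34 (SE 0.70, adjusted p = 0.885). Fcer1g, which monocytes express themselves, was at 725 to 953 FPKM.

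Treml1 encodes TLT-1, a receptor of the TREM family that is stored in alpha granules. Its level was 0.938, 0.406 and 1.19 FPKM in Con, 0.536, 0.455 and 0.675 FPKM in Van, and 0.305, 0.695 and 0.573 FPKM in VanLip. Con1 and Con3 were the highest libraries and VanLip1 the lowest, and Con2 lay below all 3 Van libraries. DESeq2 estimated -0.59 (SE 0.46, adjusted p = 0.637) for Van against Con and -0.69 (SE 0.45, adjusted p = 0.431) for VanLip against Con. These were -0.93 and -1.03 without Con2, and -0.29 and -0.39 without Con3.

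**Figure D2:**
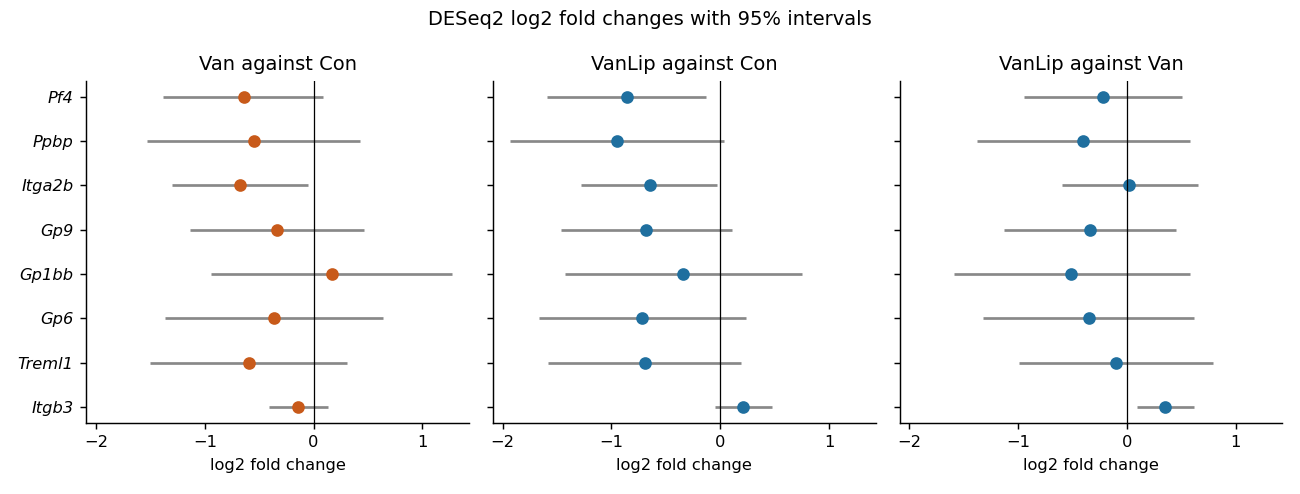
DESeq2 log2 fold change (x axis) of each member for the 3 contrasts, with 95% intervals from the standard error and a line at 0. The interval of Itga2b excludes 0 for Van against Con, those of Pf4 and Itga2b for VanLip against Con, and that of Itgb3 for VanLip against Van, all before adjustment.

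In the order of group means in FPKM, Con was the highest group for 6 members (Pf4, Ppbp, Itga2b, Gp9, Gp6 and Treml1), Van for Gp1bb and VanLip for Itgb3. Neighbouring groups in these orders overlapped for each member, and for no member did 3 libraries of one group lie apart from both other groups. Summed over the 7 members without Itgb3, the level was 19.3, 11.4 and 23.6 FPKM in Con, 13.6, 12.6 and 10.9 FPKM in Van, and 5.27, 13.2 and 12.6 FPKM in VanLip. The sum was highest in Con3 and lowest in VanLip1, and Con2 was lower than Van1, Van2, VanLip2 and VanLip3. It made up 0.00135% to 0.00590% of all FPKM of a library.

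Among replicates the same libraries were low for most of these 7 genes. Con2 was the lowest Con library for 7 of 7 in normalized counts, and VanLip1 the lowest VanLip library for 6 of 7. In the Van group the lowest library was Van3 for 4, Van2 for 2 and Van1 for 1. Over the 9 libraries the 21 pairs among the 7 genes had Pearson r values from 0.08 to 0.94 with a median of 0.75.

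Itgb3 and Gp6 correlated least with the rest. The r of Itgb3 with each of the 7 ranged from -0.52 (Gp6) to 0.39 (Itga2b), with a median of 0.22, although in normalized counts it too was lowest in Con2, Van3 and VanLip1 within their groups. Gp6 had r values from 0.08 (Gp1bb) to 0.41 (Treml1) with the other 6. The coefficient of variation from the DESeq2 dispersion was 0.11 for Itgb3, near the median of 0.12 over the 15351 genes whose normalized counts averaged 20 or more, and 0.27 (Itga2b) to 0.45 (Gp1bb) for the other members. Itgb3 had the most fragments, 932 to 3431 a library. The fit was made on expected counts, which exceed the fragments, so part of the counting error stays in these coefficients and weighs most on members with few fragments.

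**Figure D3:**
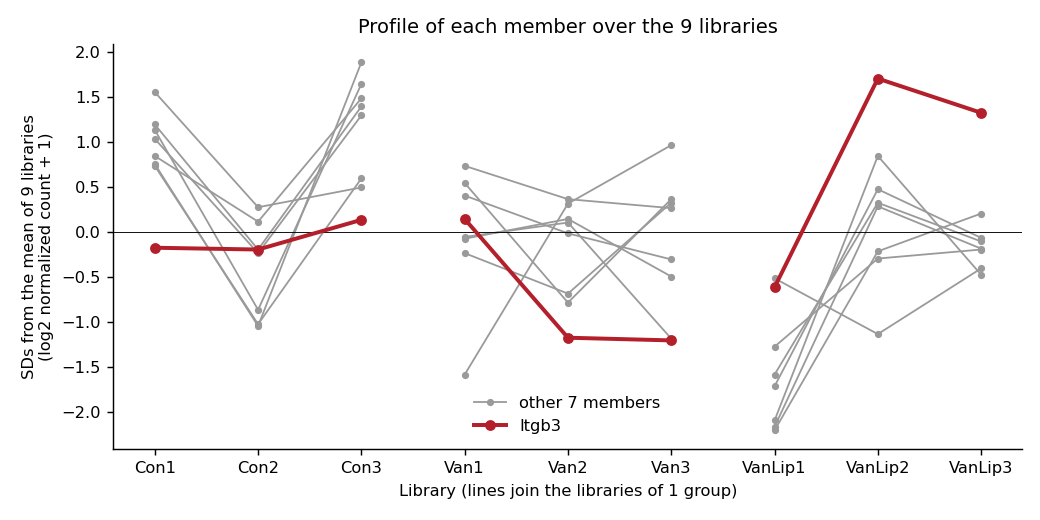
Profile of each member over the 9 libraries, as SDs from the mean of log2 (normalized count + 1). Itgb3 (red) was highest in VanLip2 and VanLip3 (1.71 and 1.33 SDs), whereas 5 of the other 7 members (grey) were highest in Con3 and 6 of the 7 were lower in VanLip1 than in VanLip2 and VanLip3.

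The genes most like the members were sought over the 9 libraries by Pearson r with the mean standardized profile of the 8, among 13496 genes whose normalized counts averaged 50 or more. The 5 highest were Alox12 (0.97), Fhl1 (0.97), Dyrk2 (0.96), Myl9 (0.95) and Nrgn (0.94). Alox12 encodes the 12-lipoxygenase of platelets, Myl9 a myosin light chain, and Nrgn neurogranin, a calmodulin-binding protein, and these 3 also belong to the list of other platelet and megakaryocyte genes. Alox12 was at 1.55, 0.981 and 2.16 FPKM in Con, 0.985, 1.06 and 0.842 FPKM in Van, and 0.337, 1.20 and 1.02 FPKM in VanLip. Having been chosen by this correlation, it is no separate support for the members' profile.

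Of 35 other genes in the platelet and megakaryocyte lists, DESeq2 called 2 for Van against Con (Itga2 and Tbxas1, both lower in Van) and none for VanLip against Con. Between VanLip and Van, Itga2, P2rx1 and Nfe2 were called higher in VanLip and Runx1 lower. Against 4.34%, 6.67% and 9.86% of all genes, these 2, 0 and 4 calls of 35 do not set the list apart. The median log2 fold changes of the 35 were -0.32, -0.18 and 0.10 in the same order of contrasts. Their r with the mean profile of the members ran from 0.97 (Alox12) down to -0.71 (F13a1) and -0.74 (F5) over the 32 with enough counts.

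Itga2, the alpha2 chain of a collagen receptor, fell in Van and was higher again in VanLip. It was listed at 0 in all 3 Van libraries, against 5.80 to 9.68 fragments in the Con libraries and 7.05 to 17.9 in the VanLip libraries. A count of 0 allows up to 3 fragments over the Van group. Against that limit the observed level was 8.78-fold higher in Con and 5.71-fold higher in VanLip. These ratios leave out the error of the Con and VanLip counts and the variation between mice. Tbxas1, thromboxane synthase, fell for Van against Con by 0.54 on the log2 scale (SE 0.16, adjusted p = 0.0181). It lay at 19.3 to 22.8 FPKM in Con and at 14.0 to 17.4 FPKM in Van. Its level was above that of each member in every library, and its r with the mean profile of the members was -0.06.

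P2rx1, an ATP-gated channel of platelets, rose for VanLip against Van with a log2 fold change of 0.80 (SE 0.25, adjusted p = 0.0229). Its r with the mean profile of the members was -0.40. Among the factors of megakaryocyte differentiation, Nfe2 rose (0.36, SE 0.10, adjusted p = 0.00609) and Runx1 fell (-0.33, SE 0.08, adjusted p = 0.000445) in that contrast. Both are also expressed by myeloid cells, and their levels, 41.5 to 61.5 and 16.7 to 25.0 FPKM, were above that of each member in every library. The same held for Thbs1 (mean 269 FPKM), F13a1 (142 FPKM) and Mef2c (28.8 FPKM), which complete the 5 genes of the lists with the highest mean and are made by monocytes as well.

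By role, the 9 other genes of platelet production and cytoskeleton had 8 negative estimates against Con in each of Van (median -0.69) and VanLip (median -0.58), and 1 of them, Tbxas1, was called. The 8 other granule genes had medians of 0.09 and 0.15 and no call. The 6 receptors for platelet agonists had medians of -0.52 and 0.25. The 8 megakaryocyte transcription factors had medians of 0.07 and -0.01 against Con. Gata1, the factor that defines megakaryocytes and erythroid cells, averaged 0.200 FPKM and was not called, with estimates of 0.52, 1.60 and 1.08.

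**Figure D4:**
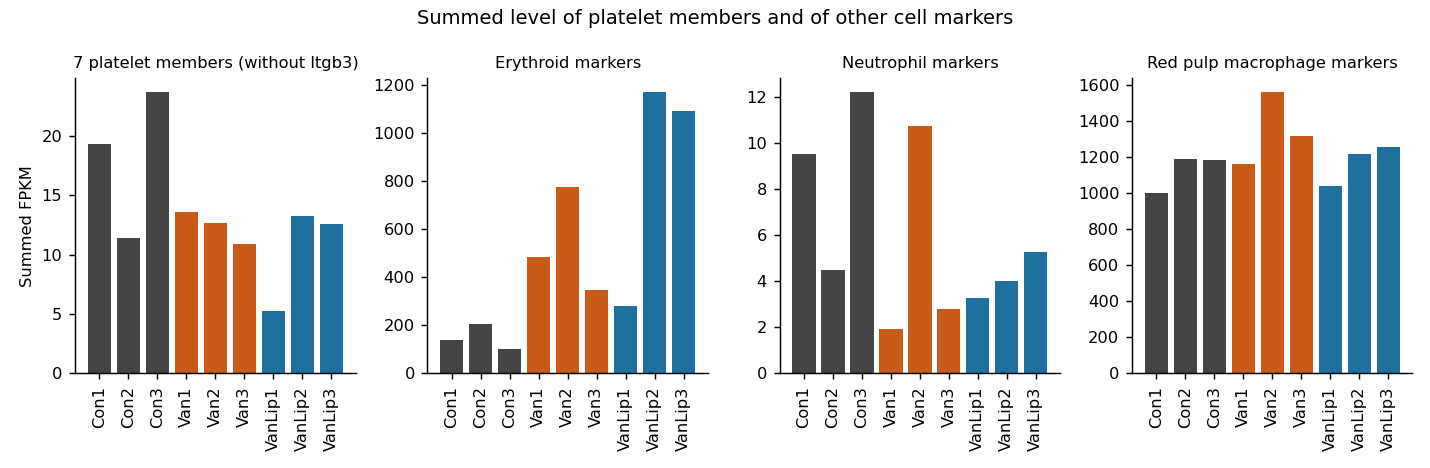
Summed FPKM (linear axes from 0, each panel with its own scale) of the 7 members without Itgb3 and of the erythroid, neutrophil and red pulp macrophage marker lists, 1 bar a library. The sum over the members was highest in Con1 and Con3, where the erythroid sum was 140 and 102 FPKM, and the erythroid sum was highest in VanLip2 and VanLip3.

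Transcripts of other blood cells moved over the same libraries. The 10 erythroid markers summed to 102 to 205 FPKM in Con, 345 to 775 FPKM in Van and 280 to 1167 FPKM in VanLip. DESeq2 called 5 of the 10 higher for Van against Con and 8 of 10 higher for VanLip against Con, among them the globin genes Hba-a1 and Hbb-bs. Summed neutrophil markers were 4.49 to 12.2 FPKM in Con, 1.94 to 10.7 FPKM in Van and 3.26 to 5.27 FPKM in VanLip, with Ly6g at 0 in every library, Retnlg called lower for Van and Ngp called lower for VanLip against Con. Con2 had the highest erythroid sum and the lowest neutrophil sum of the Con group, and VanLip1 the lowest of both in the VanLip group. Summed T cell markers were also lowest in Con2 (12.1 FPKM) among Con and in VanLip1 (7.09 FPKM) among VanLip. So were those of mast cells and basophils (0.962 and 0.652 FPKM). Cd4, at 8.30 to 11.0 FPKM in Con, gave most of the T cell sum. Of the CD3 genes, Cd3d and Cd3g were highest in Con2 among Con and Cd3e lowest. The sums of NK cell (0.771 FPKM) and stem and progenitor markers (10.9 FPKM) were highest in Con2 among Con. That of B cell markers was lowest in Con1 among Con. In the VanLip group the NK and B cell sums were lowest in VanLip1 and the stem and progenitor sum highest. The part of these other cells in the levels of the platelet transcripts was not tested.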

How the data were processed

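Per the labels and the study's methods, the authors aligned paired reads to GRCm38 with HISAT2 2.2.1, handled them with SAMtools 1.9 and estimated FPKM values with StringTie 2.1.3; the annotation release is not given in the sources used here. The authors also deposited expected counts (estimated with tximport, not normalized). Groups came from the sample titles.

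Expected counts were rounded and fitted over all 9 libraries by group with DESeq2 1.42.0 (R 4.3.3; Wald test, independent filtering at 0.05), and an adjusted p of 0.05 or under was called. Conversion to fragments used the read length found from each library's commonest low count, which gave 16151385 to 23018927 fragments in Con and Van and 42625868 to 46180176 in VanLip. Intervals and limits from fragment counts cover counting error only, and the ratios for Itga2 cover that of the Van count alone. Gene positions are from GENCODE M21 (GRCm38), promoters from RefSeq (GRCm38.p6).

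Members and lists were chosen with earlier results of these data known. Named besides the members were the called genes and the 5 of highest mean FPKM in the platelet and megakaryocyte lists, the 5 most alike and partners of members; Gp1ba, Gp5, Gata1, Clec1b, Tubb1 and markers of other cells were named after their values were seen. Alternatives were edgeR 4.0.16, limma 3.58.1 on quantile-normalized log2 FPKM, other scalings and filters, a replicate block and leaving out each library. The DESeq2, edgeR and limma fits were tested on simulated counts with known changes; there DESeq2 made more false calls than its adjusted p allows.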

Additional observations from a re-analysis of the deposited data

How the results depend on the processing

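Over 20 alternatives, no member was called for Van against Con, but some had no adjusted p there and could not be called (Pf4, Gp9, Gp1bb, Gp6 and Treml1 with the 2 groups only, Gp1bb, Gp6 and Treml1 in both fits on fragments and without Van1, Gp6 without Con2, and Gp1bb and Gp6 without VanLip3). Leaving out 1 library at a time gave 0 to 1 members called for VanLip against Con and also 0 to 1 between VanLip and Van, through Ppbp (without Con2 or VanLip3) and Itgb3 (without VanLip1 or Van1). Members with a lower estimate then numbered 6 to 8, 6 to 7 and 4 to 7. A mean FPKM of at least 1 left 5 members, of which 5, 4 and 3 had a lower estimate. Same-numbered libraries had deviations from their group with r from -0.06 to 0.12, so no strong shared deviation was seen. The labels do not say whether the numbers mark matched sets, and these values cannot exclude it. Counts converted to fragments also called 0 members in each contrast, of those with an adjusted p. The replicate block called 0 members and moved the count of all genes called from 803 to 932 for Van against Con.

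Some signs changed, also of estimates as large as -0.35 (Gp6, VanLip against Van). Leaving out 1 library at a time, Gp1bb ranged from -0.14 (without Con2) to 0.38 and Gp9 from -0.65 to 0.06 (without Con3) for Van against Con, and Gp1bb from -0.96 to 0.04 (without VanLip1) for VanLip against Con. Between VanLip and Van, Itga2b was -0.00 with the replicate block, -0.01 with limma and a pseudocount of 0.1, -0.17 without Van3, -0.25 without VanLip2, -0.04 without VanLip3 and at most 0.30 (without VanLip1). In that contrast Gp6 was 0.02 and Treml1 0.17 with VanLip fragments thinned to the depth of the others, Treml1 ranged from -0.34 to 0.17 over left-out libraries (0.07 without Van3, 0.17 without VanLip1) and Pf4 from -0.53 to 0.12 (without VanLip1). The cause was not tested.

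Over all genes, calls ranged from 17 to 990 for Van against Con, 168 to 1276 for VanLip against Con and 516 to 1822 between VanLip and Van. By edgeR they were 204, 301 and 855, and by limma with a pseudocount of 1 they were 92, 237 and 688. Conversion to fragments left 844 for VanLip against Con, and thinning these 731. In that contrast the thinned fit gave -0.06 for Gp1bb and -0.45 for Treml1, beside -0.34 and -0.69 in the main fit. Pf4 moved little, from -0.86 to -0.89. With 4.35 to 14.0 fragments a library for Gp6 and an SE near 0.5 for the lower members, a 2-fold difference lay inside most of their intervals.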

Other observations

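Clec1b, the podoplanin receptor of platelets, is given here after its values were seen. Its mean was 10.5 FPKM, with 9.35 to 13.7 FPKM in Con, 8.52 to 12.1 FPKM in Van and 7.92 to 12.9 FPKM in VanLip. It did not pass the DESeq2 test in any contrast, with estimates of -0.16, -0.08 and 0.09. Tubb1, the beta-tubulin of platelets, also chosen after its values were seen, was at 3.91, 1.45 and 4.00 FPKM in Con, 2.49, 2.05 and 1.15 FPKM in Van, and 1.08, 1.94 and 2.26 FPKM in VanLip, and it too was lowest in Con2 and VanLip1 within their groups.

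Cxcl3, a chemokine gene near Pf4 on chromosome 5, fell for VanLip against Con (log2 fold change -2.32, SE 0.62, DESeq2 adjusted p = 0.00661) and for VanLip against Van (-2.51, SE 0.62, adjusted p = 0.00151). Its level was 0.133 to 0.431 FPKM in Con, 0.181 to 0.422 FPKM in Van and 0.0111 to 0.0633 FPKM in VanLip. Of the marker lists for other cells, 5 B cell markers summed to 8.35 to 12.4 FPKM, 5 T cell markers to 7.09 to 15.9 FPKM, 6 mast cell and basophil markers to 0.515 to 1.74 FPKM and 6 stem and progenitor markers to 9.83 to 15.7 FPKM over the 9 libraries, with no call by DESeq2 in any of these lists. The 5 endothelial markers summed to 13.3 to 44.7 FPKM, of which Pecam1, also expressed by monocytes, gave most. DESeq2 called Pecam1 higher for Van against Con, and Pecam1 and Kdr lower in VanLip than in Van.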
